A study of Homo sapiens with 9 samples.

Results

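This account follows 72 genes in MDA-MB-231, a long-established human cell line of triple-negative breast cancer, whose mRNA was higher in cells made to overexpress the nuclear receptor TLX and lay close to the same level after an siRNA against TLX. The members were chosen on measured values. From the deposited log2 CPM values (log2 of a gene's reads scaled by the library's total), 1 row was kept per gene symbol, that with the highest mean. A gene was kept where its mean over the 9 libraries was at least 1. Its group mean also had to be at least 1 log2 unit higher in TLX-overexpressing cells than in control cells, and to change by less than 0.25 either way with the TLX siRNA. Of 25245 symbols, 11886 reached the mean of 1, 323 of these were higher by 1 log2 unit or more, and 72 of the 323 lay inside the bound. Because these values chose the genes, the differences between groups among the 72 are given as a description, with no test.

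The 3 groups had 3 libraries each, numbered S1 to S9 as in the deposited table. TLX+siTLX (S7 to S9) was the TLX-overexpressing cells given the siRNA against TLX, TLX+siCTL (S4 to S6) was the same cells given a universal negative control siRNA, and CTL+siCTL (S1 to S3) was control cells given that control siRNA. All cells were transfected for 48 h, so the transfection was shared by every group. The control titles contain PC3 with no explanation, although the labelled cell line is MDA-MB-231 throughout. The means of overexpression, the number of clones in the line and the sequences of the siRNAs are not given in the sources at hand. Nothing in the labels tells whether the replicates came from separate cultures. P-values therefore measure the spread between these libraries, which may be technical.

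TLX, encoded by NR2E1, is an orphan nuclear receptor best known from neural stem cells, where it binds DNA and recruits corepressors to silence genes that would slow division. Knockdown by siRNA lowers the mRNA of its target and so asks which changes in an overexpressing line are undone when the factor is reduced again. The genes described here were higher in the overexpressing line and stayed within the bound after the knockdown. They include secreted glycoproteins of the pregnancy-specific (PSG) family, regulators of the cytoskeleton, a subunit of the replication helicase and several transcribed pseudogenes.

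NR2E1 itself had -2.61, -3.40 and -1.77 log2 CPM in TLX+siTLX cells, 0.28, -0.84 and 0.23 in TLX+siCTL cells, and -4.59, -4.28 and -4.50 in CTL+siCTL cells. The 3 groups did not overlap. All values were low and those of control cells lay near the lowest value of the deposited table. The sizes of the differences below are therefore uncertain, above all those from control cells. NR2E1 had a mean of -2.39 log2 CPM over the 9 libraries, under the minimum of 1 set for the members. It was higher in TLX+siCTL cells than in CTL+siCTL cells by 4.35 (SE 0.47, adjusted p = 0.000133, limma with Benjamini-Hochberg adjustment over all 27548 rows) and fell by 2.48 on the log2 scale with the siRNA (SE 0.47, limma adjusted p = 0.00494). It was still 1.86 above the control level in TLX+siTLX cells (SE 0.47, limma adjusted p = 0.0134). The siRNA therefore left NR2E1 mRNA between both other groups, and what remained of it cannot be told apart in these data from any other lasting difference between the TLX line and the control cells.

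Effective library sizes were estimated at 73.8 to 91.8 M reads. In each library 18.5% to 20.1% of rows stood at the lowest value of the table. Of 19 basal and mesenchymal markers of triple-negative cells, 2 were under 1 CPM in every library, and the level differed widely between them, with VIM between 1026 and 1811 CPM and CD44 between 695.5 and 1263 CPM, but KRT17 between 1.41 and 6.62, SPARC between 0.0335 and 0.235 and KRT14 between 0.0248 and 0.0638 CPM. Of 16 luminal markers, the oestrogen receptor gene ESR1 did not exceed 0.291 CPM in any library, while the keratin gene KRT8 lay between 290.2 and 487.9 CPM. The luminal markers summed to 1404 to 1497 CPM in TLX+siTLX, 1105 to 1176 CPM in TLX+siCTL and 1895 to 1926 CPM in CTL+siCTL cells. Of 13 prostate markers, 8 were under 1 CPM in every library. They summed to 58.3 to 62.3 CPM in TLX+siTLX, 61.7 to 64.4 CPM in TLX+siCTL and 58.2 to 61.3 CPM in CTL+siCTL cells. What PC3 in the control titles stands for was not tested. S9 held the lowest of the 3 TLX+siTLX values in 31 of the 72 genes (43.1%), against 41.9% of the 11886 genes, and the rule applied without S9 also found 72 genes, not all of them the same. In bulk RNA, fewer cells of a type and less RNA per cell cannot be told apart.

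The middle gene of the 72 was 2.29-fold higher in TLX+siCTL cells than in the controls. The difference between TLX+siCTL and CTL+siCTL had a median of 1.19 on the log2 scale, with quartiles of 1.11 and 1.41. Only 13 genes exceeded 1.5 and 3 exceeded 2, while 36 lay under 1.2. All 72 had TLX+siCTL libraries entirely above the CTL+siCTL libraries, as did 36.9% of the 11886 genes, and all 72 had TLX+siTLX libraries above CTL+siCTL, as did 36.2%. By limma, 72 of 72 were called higher in TLX+siCTL cells than in CTL+siCTL, against 29.6% of the 11886 genes, and 72 of 72 in TLX+siTLX against CTL+siCTL, where the background was 32.6%. The choice of the genes fixed all of these counts, and nothing is read from them.

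**Figure D1:**
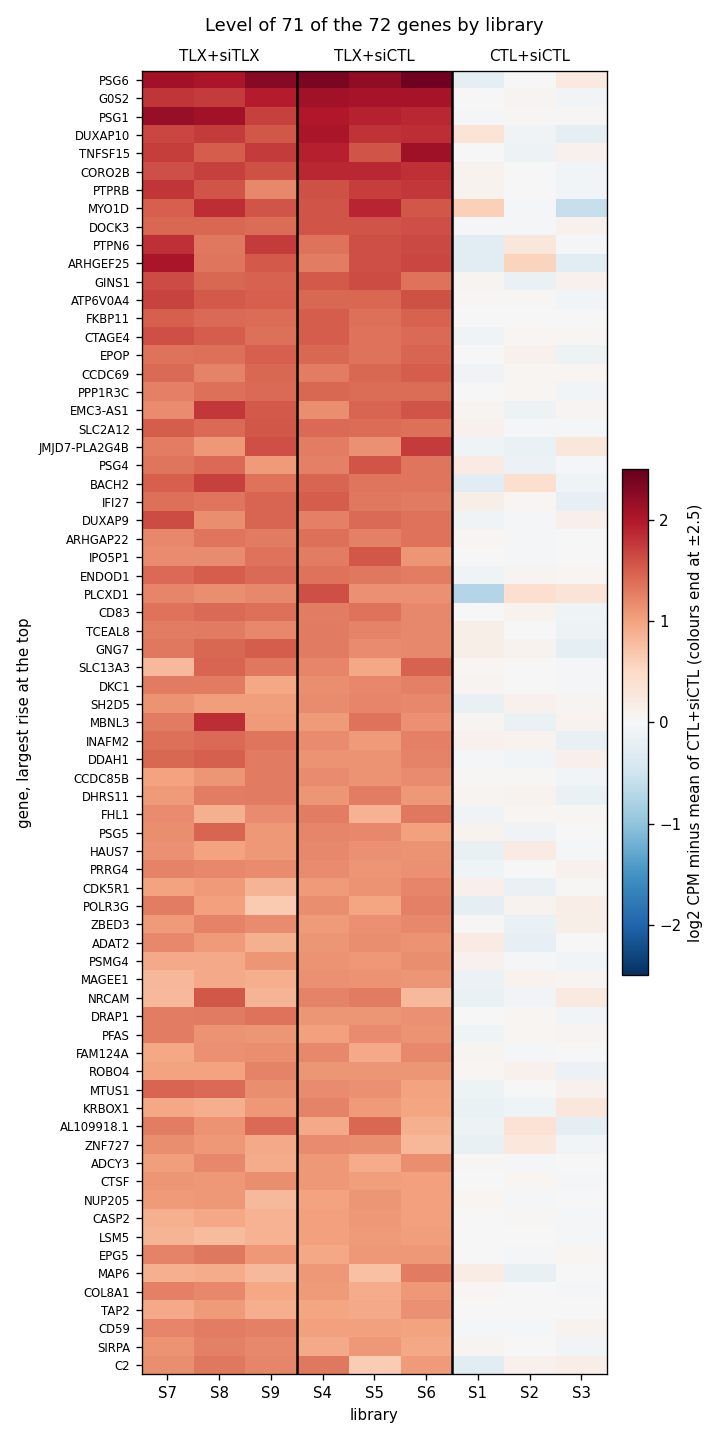
Heat map of 71 of the 72 genes (rows, largest difference at the top) in the 9 libraries (columns), coloured by log2 CPM minus the gene's mean in CTL+siCTL, with colours ending at ±2.5. TLX+siTLX and TLX+siCTL columns are alike in colour, with medians over the 72 genes of 1.27 to 1.31 and 1.21 to 1.23 per library, and CTL+siCTL medians lie between -0.01 and 0.01.

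The change with the siRNA was above 0 in 34 genes and below 0 in 38, and within 0.1 either way in 38. Its median was -0.02, between -0.24 and 0.24. Seen from the control cells, TLX+siTLX was higher by a median of 1.26 and by at least 0.84. Among the 323 genes that were higher by 1 or more, staying was not the usual course. A further increase of at least 0.25 with the siRNA was seen in 192 of them (59.4%), a decrease of that size in 59 (18.3%), and the 72 made up the remaining 22.3%.

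**Figure D2:**
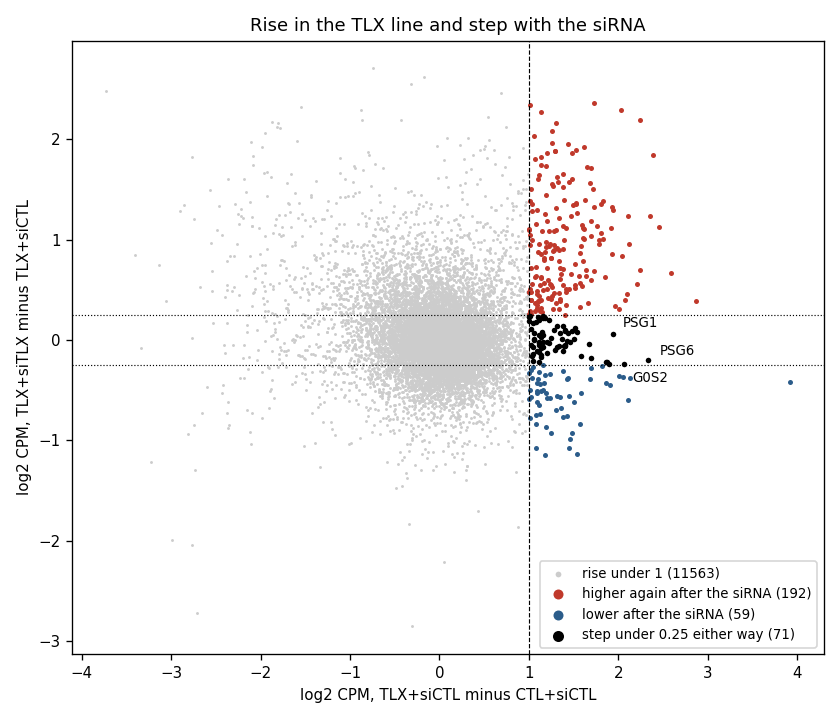
Each point is 1 of 11885 genes, with TLX+siCTL minus CTL+siCTL on the x axis and TLX+siTLX minus TLX+siCTL on the y axis, both in log2 CPM. Dashed and dotted lines mark the bounds of the rule; the 71 genes drawn in black lie in the band right of 1, between the 192 genes that were higher again (red) and the 59 that were lower (blue), with PSG6 at 2.33 and -0.20.

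The PSG family supplied 4 of the 72 genes: PSG6, PSG1, PSG4 and PSG5. PSGs are secreted glycoproteins of the immunoglobulin superfamily, related to the CEACAM adhesion proteins and known as products of the syncytiotrophoblast of the placenta, where they act on immune cells and vessels of the mother. Their genes lie side by side on chromosome 19. PSG6 (ENSG00000170848, chr19:42902079-42919563 on the minus strand in GRCh38) had 2.20, 2.13 and 2.37 log2 CPM in TLX+siTLX cells, 2.46, 2.31 and 2.53 in TLX+siCTL cells, and -0.15, 0.09 and 0.35 in CTL+siCTL cells. The TLX+siTLX and TLX+siCTL libraries overlapped, and all 6 were far above the controls, with a difference of 2.33 for TLX+siCTL minus CTL+siCTL (SE 0.14) and -0.20 for the siRNA. PSG1, whose gene ends 22.3 kb from PSG6, had 5.41, 5.33 and 4.93 in TLX+siTLX cells, 5.23, 5.14 and 5.11 in TLX+siCTL cells, and 3.17, 3.26 and 3.25 in CTL+siCTL cells. S9 gave the lowest PSG1 value of its group, and the group means of TLX+siTLX and TLX+siCTL differed by 0.06, beside 1.94 between TLX+siCTL and CTL+siCTL.

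PSG4 had 4.94, 5.02 and 4.68 log2 CPM in TLX+siTLX cells, 4.86, 5.18 and 4.95 in TLX+siCTL cells, and 3.81, 3.47 and 3.56 in CTL+siCTL cells. Its neighbour PSG5 had 4.00, 4.30 and 3.92 in TLX+siTLX cells, 4.06, 4.05 and 3.88 in TLX+siCTL cells, and 2.93, 2.76 and 2.84 in CTL+siCTL cells. In both genes the TLX+siTLX and TLX+siCTL libraries intermingled above the controls, with differences of 1.39 and 1.15 between TLX+siCTL and CTL+siCTL. The genes are 6.17 kb apart on the minus strand, and RefSeq gives a promoter window for both (250 bases before to 50 after the start, GRCh38.p14, chr19:43205589-43205888 for PSG4 and chr19:43186487-43186786 for PSG5, both minus strand). The windows are shown because these neighbours are both inside the rule and their windows are alike over the aligned stretch. In each window 31 bases were left unaligned. The levels of the genes differed, with PSG4 above PSG5 in every library. Whether the windows bear on the values was not tested. The likeness of the windows is not particular to this pair. The window of PSG3, outside the rule, was 95.5% identical to that of PSG5 and 94.2% to that of PSG4 over the aligned bases. Capitals mark bases that differ within the aligned stretch, which held 253 identical and 16 different bases of 269 (94.1%).
PSG4: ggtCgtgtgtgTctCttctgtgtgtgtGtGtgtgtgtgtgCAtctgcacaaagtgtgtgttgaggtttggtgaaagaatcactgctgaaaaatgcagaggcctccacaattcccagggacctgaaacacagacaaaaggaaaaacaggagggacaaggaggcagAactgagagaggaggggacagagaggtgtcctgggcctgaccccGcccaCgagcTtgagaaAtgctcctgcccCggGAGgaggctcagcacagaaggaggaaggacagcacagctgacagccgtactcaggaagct
PSG5: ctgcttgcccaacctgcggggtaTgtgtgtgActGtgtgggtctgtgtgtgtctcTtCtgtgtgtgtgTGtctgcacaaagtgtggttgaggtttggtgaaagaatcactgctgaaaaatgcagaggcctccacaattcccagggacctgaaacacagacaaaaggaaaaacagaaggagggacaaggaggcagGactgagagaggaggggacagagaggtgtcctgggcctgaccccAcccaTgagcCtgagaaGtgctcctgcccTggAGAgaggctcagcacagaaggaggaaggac

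The transcripts are alike too. Of the 31-base words in the GENCODE 29 transcripts of each gene, 61.3% in PSG1, 67.5% in PSG4, 57.1% in PSG5 and 68.9% in PSG6 occurred in no other gene, against a median of 96.6% over the 70 members matched. Outside the rule the share was 44.3% in PSG8, 48.5% in PSG9 and 54.7% in PSG3, lower than in any of the 4 members. In PSG10P, PSG11, PSG2 and PSG7 it was 58.9%, 60.9%, 63.7% and 68.5%, within the range of the members. Reads may therefore have been split between PSG genes, inside and outside the rule, and each value is uncertain to that extent.

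The 7 PSG rows outside the rule moved the same way relative to control cells. All 7 were called higher in TLX+siCTL cells than in CTL+siCTL by limma and none lower, where 29.6% of the 11886 genes were called higher and 27.9% lower. PSG3 had 2.21, 2.29 and 1.90 log2 CPM in TLX+siTLX cells, 1.54, 1.59 and 1.60 in TLX+siCTL cells, and -0.23, -0.997 and -0.66 in CTL+siCTL cells. It rose by 2.21 in TLX+siCTL relative to CTL+siCTL (SE 0.20, limma adjusted p = 4.7e-05). PSG8 rose by 2.04 (SE 0.19, limma adjusted p = 5.7e-05) and PSG7 by 1.96 (SE 0.11, limma adjusted p = 4.5e-06) in the same comparison. With the siRNA, PSG8 passed the test with all libraries in the fit, with 3.33, 3.28 and 2.91 in TLX+siTLX cells and 2.38, 2.59 and 2.02 in TLX+siCTL cells, a further increase of 0.84 (SE 0.19, limma adjusted p = 0.0122). PSG3 differed by 0.56 with the siRNA (SE 0.20, limma adjusted p = 0.0819) and PSG7 by 0.34 (SE 0.11, limma adjusted p = 0.0624). Which of these rows pass with the siRNA was not stable. Of the 6 PSG and CEACAM genes outside the rule with the minimum mean, 1 was called higher with the siRNA, and 0 to 4 were under the alternatives. PSG8 was not called without S6, S7 or S8 (adjusted p = 0.0519, 0.0559 and 0.0599). PSG3 was called without S1 or S2 (adjusted p = 0.0351 and 0.0441), and PSG7 without S2 or S3 (adjusted p = 0.0398 and 0.0358). Over all 11 PSG rows the median difference was 0.08 for TLX+siTLX minus TLX+siCTL and 1.75 for TLX+siCTL minus CTL+siCTL, and in all 11 the TLX+siCTL libraries lay above the controls without overlap.

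**Figure D3:**
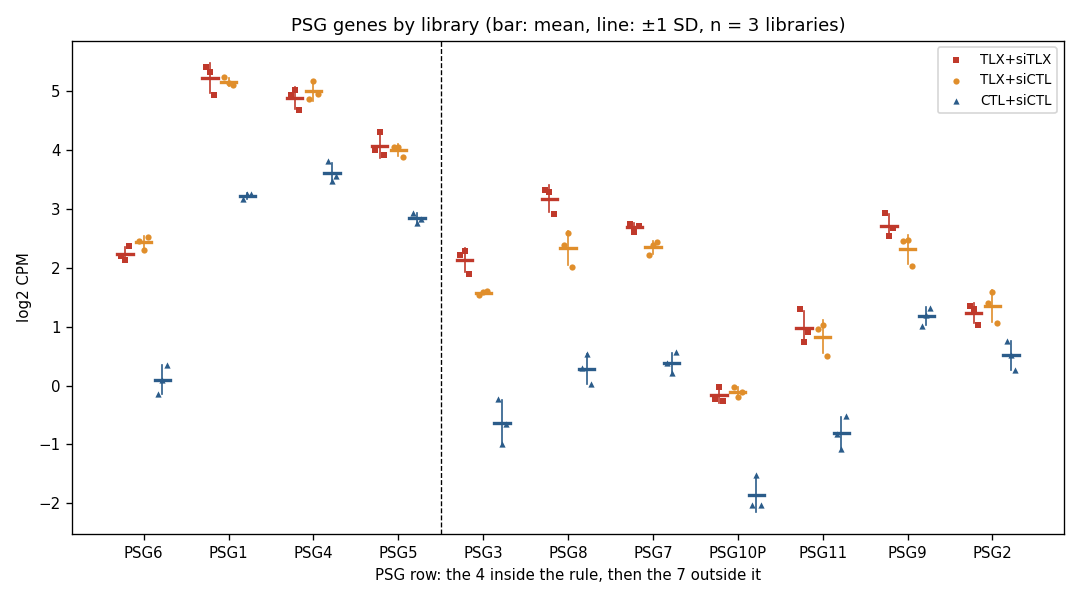
log2 CPM of the 11 PSG rows, with a point per library, a bar at the mean and a line of ±1 SD (n = 3 libraries); colours mark TLX+siTLX, TLX+siCTL and CTL+siCTL from left to right within a gene. The 4 genes left of the dashed line are inside the rule; in all 11 the control libraries are lowest, and PSG8, outside the rule, differs with the siRNA by limma when all libraries are used.

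Most other placental genes were near the lowest values. Of 27 trophoblast and placental markers, 18 were under 1 CPM in every library. The hormone subunit gene CGA lay between 0.0248 and 0.0740 CPM, the aromatase gene CYP19A1 between 0.0248 and 0.0593 CPM, and GCM1, the factor that drives syncytiotrophoblast formation, between 0.0991 and 0.202 CPM. The summed level of the 27 markers was 542.9 to 637.7 CPM in TLX+siTLX, 301.8 to 327.4 CPM in TLX+siCTL and 434.6 to 472.5 CPM in CTL+siCTL cells, most of it from the keratin gene KRT7. Of the 7 markers above the minimum mean, limma called 3 higher and 3 lower in TLX+siCTL cells than in the controls, where 29.6% and 27.9% of the 11886 genes were called. Trophoblast regulators that other cells also use were expressed, with TFAP2A between 18.5 and 23.8, TFAP2C between 9.98 and 22.7 and GATA3 between 4.35 and 20.5 CPM, and KRT7 lay between 202.2 and 513.9 CPM. The remaining markers above the minimum mean were PLAC8 (39.9 to 56.2 CPM), ADAM12 (0.799 to 4.87 CPM) and PAPPA. PAPPA ran opposite to the PSG genes, with 4.47 to 7.95 CPM in TLX+siTLX, 3.64 to 4.94 in TLX+siCTL and 12.8 to 17.5 in CTL+siCTL cells.

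Some members act in cytokine, complement or surface signalling, grouped here after their values were seen. TNFSF15 encodes a cytokine of the tumour necrosis factor family that acts on T cells and endothelium. It had 6.82, 6.60 and 6.83 log2 CPM in TLX+siTLX cells, 7.03, 6.66 and 7.22 in TLX+siCTL cells, and 5.10, 4.97 and 5.20 in CTL+siCTL cells. TLX+siCTL libraries were the more scattered and overlapped those of TLX+siTLX, and the difference to CTL+siCTL was 1.88 (SE 0.13). PTPRB, a receptor tyrosine phosphatase of endothelial cells, had 4.89, 4.68 and 4.31 in TLX+siTLX cells, 4.69, 4.84 and 4.87 in TLX+siCTL cells, and 3.19, 3.10 and 3.03 in CTL+siCTL cells. PTPN6, a cytoplasmic tyrosine phosphatase of blood cells, lay just above the minimum mean, with 1.78, 1.27 and 1.71 in TLX+siTLX cells, 1.31, 1.58 and 1.62 in TLX+siCTL cells, and -0.30, 0.24 and -0.06 in CTL+siCTL cells. Both phosphatases had TLX+siTLX and TLX+siCTL libraries that overlapped each other and lay above the controls.

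CD59, the surface protein that blocks the membrane attack complex of complement, was the gene with the highest mean of the 72. It had 8.90, 8.95 and 8.94 log2 CPM in TLX+siTLX cells, 8.70, 8.70 and 8.67 in TLX+siCTL cells, and 7.63, 7.63 and 7.76 in CTL+siCTL cells. Its libraries were tight enough that TLX+siTLX lay apart from TLX+siCTL although the difference, 0.24, was inside the bound. Complement component C2 stood at the lower edge of the rule, with 3.77, 3.93 and 3.83 in TLX+siTLX cells, 3.93, 3.25 and 3.67 in TLX+siCTL cells, and 2.35, 2.72 and 2.77 in CTL+siCTL cells. The interferon-induced gene IFI27 had 5.78, 5.75 and 5.86 in TLX+siTLX cells, 5.93, 5.73 and 5.71 in TLX+siCTL cells, and 4.56, 4.47 and 4.22 in CTL+siCTL cells. Its groups with TLX intermingled and their means differed by 0.01, beside 1.38 between TLX+siCTL and CTL+siCTL. SIRPA, the receptor for the "do not eat me" signal CD47, and CD83, a surface protein of mature dendritic cells, differed by 1.00 and 1.28 between TLX+siCTL and CTL+siCTL. ADCY3, an adenylyl cyclase, had the smallest change with the siRNA of all 72, 0.00, with 6.11, 6.26 and 5.99 in TLX+siTLX cells, 6.14, 6.00 and 6.22 in TLX+siCTL cells, and 5.10, 5.04 and 5.05 in CTL+siCTL cells.

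Regulators of actin and of small GTPases were a further group, put together after their values were seen. CORO2B, an actin-binding coronin, had 3.59, 3.70 and 3.58 log2 CPM in TLX+siTLX cells, 3.86, 3.86 and 3.81 in TLX+siCTL cells, and 2.07, 1.97 and 1.91 in CTL+siCTL cells. The 3 groups did not overlap, with differences of -0.22 with the siRNA and 1.86 for TLX+siCTL minus CTL+siCTL. DOCK3, an exchange factor for the GTPase Rac, had 2.75, 2.74 and 2.71 in TLX+siTLX cells, 2.88, 2.88 and 2.91 in TLX+siCTL cells, and 1.26, 1.26 and 1.41 in CTL+siCTL cells, again with no overlap. MYO1D, an unconventional myosin, was less even, with 1.84, 2.21 and 1.92 in TLX+siTLX cells, 1.93, 2.26 and 1.91 in TLX+siCTL cells, and 0.96, 0.33 and -0.22 in CTL+siCTL cells. Its control libraries spanned more than a log2 unit but stayed under every library with TLX. CDK5R1, an activator of the kinase CDK5, lies 1.27 kb from MYO1D on the opposite strand and had 4.08, 4.15 and 3.94 in TLX+siTLX cells, 4.15, 4.21 and 4.30 in TLX+siCTL cells, and 3.20, 2.92 and 3.12 in CTL+siCTL cells. The GTPase exchange factor ARHGEF25, the Rac inactivator ARHGAP22 and the microtubule stabiliser MAP6 had differences of 1.52, 1.34 and 1.03 between TLX+siCTL and CTL+siCTL, and of 0.12, -0.06 and -0.16 with the siRNA.

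GINS1 was the only gene of the replication list inside the rule. It encodes a subunit of the GINS complex, which joins MCM proteins and CDC45 in the helicase that opens DNA at replication forks. GINS1 had 3.19, 3.00 and 3.04 log2 CPM in TLX+siTLX cells, 3.10, 3.19 and 2.92 in TLX+siCTL cells, and 1.62, 1.40 and 1.66 in CTL+siCTL cells. The groups with TLX overlapped fully and differed by 0.01, beside 1.51 between TLX+siCTL and CTL+siCTL (SE 0.10). Its RefSeq promoter window held TTTGGCGC, a spelling of the E2F site, on the opposite strand 5 bases after the start, shown in capitals (GRCh38.p14, chr20:25407663-25407700, plus strand).
GINS1: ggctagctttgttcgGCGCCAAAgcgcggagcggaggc

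Of 64 measured genes for replication licensing and the fork, 20 were higher by 1 or more in TLX+siCTL than in CTL+siCTL, and 19 of these were higher again by at least 0.25 with the siRNA, GINS1 being the exception. Of the 63 genes other than GINS1, 52 were called higher and 4 lower with the siRNA by limma, where 24.3% of the 11886 genes were called higher and 22.5% lower. Their median difference was 0.54 for TLX+siTLX minus TLX+siCTL and 0.67 for TLX+siCTL minus CTL+siCTL, against medians of -0.00 and 0.00 over the 11586 placed genes outside the 72. GINS4, a partner of GINS1 shown with GINS3 after its values were seen, had 3.40, 3.46 and 3.67 log2 CPM in TLX+siTLX cells, 2.47, 2.35 and 2.46 in TLX+siCTL cells, and 1.13, 1.70 and 1.00 in CTL+siCTL cells. It rose by 1.08 with the siRNA (SE 0.17, limma adjusted p = 0.00183). GINS3 rose by 0.38 (SE 0.11, limma adjusted p = 0.0307), and GINS2 differed by 0.69 (SE 0.33, limma adjusted p = 0.195). MCM10, which loads polymerase alpha at the fork, rose by 1.23 with the siRNA (SE 0.20, limma adjusted p = 0.00202), and CLSPN, the checkpoint adaptor claspin, by 1.33 (SE 0.14, limma adjusted p = 0.000202). Whether GINS1 differs from its partners in this change was not tested.

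**Figure D4:**
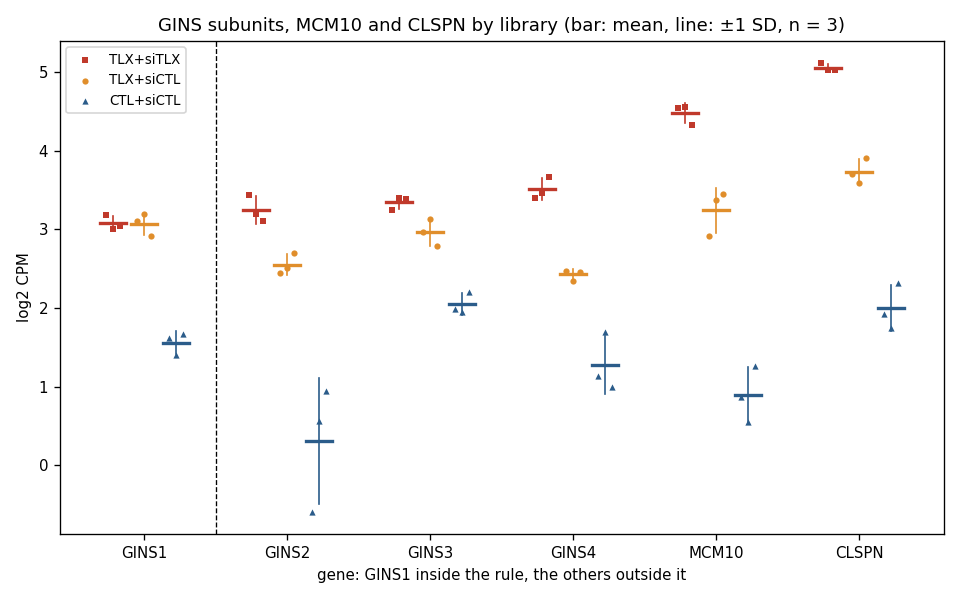
log2 CPM of the 4 GINS subunit genes, MCM10 and CLSPN, with a point per library, a bar at the mean and a line of ±1 SD (n = 3 libraries); colours mark TLX+siTLX, TLX+siCTL and CTL+siCTL from left to right within a gene. TLX+siTLX and TLX+siCTL libraries of GINS1 overlap, with means of 3.08 and 3.07, and those of the other 5 genes do not.

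Of the 29 gene lists examined, 24 held none of the 72 genes. In the mitosis list all 22 genes that were higher by 1 or more in the TLX line were higher again with the siRNA. Of the lists with a member, the ZNF and ZKSCAN zinc finger genes held ZNF727 among 403 measured genes, the solute carriers SLC2A12 and SLC13A3 among 200, and the matrix and protease genes COL8A1 among 62. Among their other genes, 70 zinc finger genes were called higher in TLX+siCTL cells than in the controls and 90 lower, 59 solute carriers higher and 65 lower, and 16 matrix genes higher and 31 lower. Their numbers were 402, 198 and 61, beside shares of 29.6% higher and 27.9% lower over the 11886 genes. With the siRNA, 39 zinc finger genes were called higher and 106 lower, 41 solute carriers higher and 70 lower, and 39 matrix genes higher and 6 lower, beside 24.3% and 22.5% over the 11886 genes. The zinc finger genes called lower with the siRNA numbered 77 to 152 under the alternatives.

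Several strong changes among those other genes ran differently from the 72. ZNF367 had 5.11, 5.13 and 5.01 log2 CPM in TLX+siTLX cells, 3.94, 4.02 and 3.93 in TLX+siCTL cells, and 1.39, 1.43 and 1.70 in CTL+siCTL cells, and rose in both steps, by 1.12 with the siRNA (SE 0.08, limma adjusted p = 3.6e-05). SLC14A1, a urea transporter, fell in both steps, by 1.22 with the siRNA (SE 0.22, limma adjusted p = 0.00429) and by 3.22 in TLX+siCTL relative to CTL+siCTL (SE 0.22, limma adjusted p = 1.1e-05). FN1, the matrix protein fibronectin, had 8.79, 8.97 and 8.88 in TLX+siTLX cells, 7.83, 7.71 and 7.74 in TLX+siCTL cells, and 9.84, 9.75 and 9.76 in CTL+siCTL cells. It fell by 2.02 in TLX+siCTL relative to CTL+siCTL (SE 0.06, limma adjusted p = 2.8e-07) and rose by 1.12 with the siRNA (SE 0.06, limma adjusted p = 5.7e-06). Not all were called with the siRNA, which does not show that they stayed the same. MMP16 fell further than FN1 in TLX+siCTL relative to CTL+siCTL, by 2.15 (SE 0.37, limma adjusted p = 0.00192). With the siRNA MMP16 differed by 0.15 (SE 0.37, limma adjusted p = 0.856). ZNF860 fell by 1.21 in TLX+siCTL relative to CTL+siCTL (SE 0.20, limma adjusted p = 0.00155). It differed by 0.21 with the siRNA (SE 0.20, limma adjusted p = 0.529).

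Within these families the members themselves were modest. SLC2A12, the glucose transporter GLUT12, had 3.39, 3.30 and 3.45 log2 CPM in TLX+siTLX cells, 3.31, 3.29 and 3.27 in TLX+siCTL cells, and 1.99, 1.84 and 1.83 in CTL+siCTL cells. SLC13A3, a carrier of dicarboxylates, had 1.32, 1.96 and 1.84 in TLX+siTLX cells, 1.74, 1.48 and 2.00 in TLX+siCTL cells, and 0.55, 0.50 and 0.48 in CTL+siCTL cells. COL8A1, the alpha chain of the short-chain collagen VIII, had 8.86, 8.80 and 8.57 in TLX+siTLX cells, 8.66, 8.54 and 8.69 in TLX+siCTL cells, and 7.64, 7.60 and 7.56 in CTL+siCTL cells. In all 3 genes the libraries with TLX overlapped between siRNAs and none reached down to a control library. ZNF727, at the foot of the range, differed by 1.06 between TLX+siCTL and CTL+siCTL and by 0.01 with the siRNA.

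Some members have metabolic or secretory roles, again grouped after their values were seen. G0S2, an inhibitor of the lipase that breaks down stored triglyceride, had 7.04, 7.01 and 7.21 log2 CPM in TLX+siTLX cells, 7.35, 7.31 and 7.31 in TLX+siCTL cells, and 5.24, 5.33 and 5.19 in CTL+siCTL cells. Its 3 groups did not overlap, and the change of -0.24 with the siRNA, close to the edge of the bound, was small beside 2.07 between TLX+siCTL and CTL+siCTL (SE 0.06). ATP6V0A4, a membrane subunit of the proton-pumping V-ATPase, had 4.26, 4.11 and 4.06 in TLX+siTLX cells, 4.01, 4.00 and 4.15 in TLX+siCTL cells, and 2.61, 2.59 and 2.51 in CTL+siCTL cells. FKBP11, a prolyl isomerase of the endoplasmic reticulum, had 3.67, 3.59 and 3.56 in TLX+siTLX cells, 3.69, 3.54 and 3.65 in TLX+siCTL cells, and 2.17, 2.16 and 2.18 in CTL+siCTL cells. Both were even within groups, with siRNA changes of 0.09 and -0.02. DDAH1, the enzyme that removes methylated arginines that inhibit nitric oxide synthase, had 7.96, 8.01 and 7.82 in TLX+siTLX cells, 7.65, 7.64 and 7.76 in TLX+siCTL cells, and 6.47, 6.44 and 6.65 in CTL+siCTL cells, and its change of 0.24 was the largest increase inside the bound. PPP1R3C, which brings protein phosphatase to glycogen, and PFAS, an enzyme of purine synthesis, differed by 1.41 and 1.11 between TLX+siCTL and CTL+siCTL and by -0.06 and 0.05 with the siRNA.

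Several members work in the nucleus or on RNA, also grouped after their values were seen. EPOP, a partner of the Polycomb repressive complex PRC2, had 5.16, 5.18 and 5.28 log2 CPM in TLX+siTLX cells, 5.24, 5.16 and 5.26 in TLX+siCTL cells, and 3.81, 3.90 and 3.68 in CTL+siCTL cells. DRAP1, a repressor that binds the TATA-binding protein, had 8.51, 8.54 and 8.60 in TLX+siTLX cells, 8.35, 8.34 and 8.39 in TLX+siCTL cells, and 7.25, 7.29 and 7.17 in CTL+siCTL cells. EPOP overlapped between siRNAs, while DRAP1 was higher in every TLX+siTLX library, by a mean of 0.20. CCDC85B, 27.6 kb from DRAP1 on the same strand, had 6.80, 6.91 and 7.11 in TLX+siTLX cells, 6.98, 6.93 and 6.99 in TLX+siCTL cells, and 5.82, 5.84 and 5.75 in CTL+siCTL cells. DKC1, the dyskerin subunit of telomerase and of the complexes that modify ribosomal RNA, had 7.23, 7.22 and 6.89 in TLX+siTLX cells, 7.09, 7.13 and 7.19 in TLX+siCTL cells, and 5.99, 5.91 and 5.88 in CTL+siCTL cells. NUP205, a scaffold protein of the nuclear pore, had 7.29, 7.32 and 7.04 in TLX+siTLX cells, 7.24, 7.34 and 7.26 in TLX+siCTL cells, and 6.28, 6.20 and 6.21 in CTL+siCTL cells. S9 was the lowest of the TLX+siTLX libraries in DKC1 and NUP205, and every library with TLX lay above the controls in both. The transcription repressor BACH2, the RNA polymerase III subunit POLR3G, the tRNA deaminase subunit ADAT2, the splicing protein LSM5 and the RNA-binding protein MBNL3 had differences of 1.38, 1.14, 1.13, 1.05 and 1.18 between TLX+siCTL and CTL+siCTL. Outside this group, EPG5 acts when autophagosomes fuse with lysosomes. It had 8.04, 8.11 and 7.87 in TLX+siTLX cells, 7.76, 7.88 and 7.88 in TLX+siCTL cells, and 6.78, 6.77 and 6.84 in CTL+siCTL cells.

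Adhesion and protein turnover were represented as well, in groups put together after the values were seen. NRCAM, a neuronal cell adhesion molecule, had 3.00, 3.75 and 3.05 log2 CPM in TLX+siTLX cells, 3.44, 3.49 and 3.01 in TLX+siCTL cells, and 2.02, 2.13 and 2.43 in CTL+siCTL cells. ROBO4, a guidance receptor of endothelium, had 4.94, 4.94 and 5.16 in TLX+siTLX cells, 5.04, 5.03 and 5.04 in TLX+siCTL cells, and 3.97, 4.04 and 3.78 in CTL+siCTL cells. Both overlapped between siRNAs, NRCAM over a wide range and ROBO4 over a narrow one. The lysosomal protease CTSF, the caspase gene CASP2 and PSMG4, a chaperone of proteasome assembly, differed by 1.05, 1.05 and 1.12 between TLX+siCTL and CTL+siCTL. On X lay TCEAL8, MAGEE1, HAUS7, which encodes a subunit of the augmin complex of the spindle, and PLCXD1, with differences of 1.24, 1.12, 1.15 and 1.30. PLCXD1 was uneven in control cells, with 3.79, 3.73 and 3.76 in TLX+siTLX cells, 4.18, 3.71 and 3.70 in TLX+siCTL cells, and 1.83, 2.99 and 2.89 in CTL+siCTL cells. Further coding members were CCDC69, ENDOD1, SH2D5, INAFM2, PRRG4, ZBED3, FAM124A, MTUS1 and KRBOX1. They had differences from 1.10 to 1.41 between TLX+siCTL and CTL+siCTL and from -0.13 to 0.23 with the siRNA. CTAGE4 and JMJD7-PLA2G4B, also annotated as coding, differed by 1.43 and 1.39, and by 0.07 and -0.06 with the siRNA.

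By annotation 65 of the 72 were protein-coding and 5 were transcribed pseudogenes, and 2 (DHRS11 and TAP2) had their chosen row outside the primary annotation. The pseudogenes DUXAP10 and DUXAP9, copies of the homeobox gene DUXA, lie 137.7 kb apart on chromosome 14. DUXAP10 had 5.32, 5.39 and 5.20 log2 CPM in TLX+siTLX cells, 5.70, 5.45 and 5.50 in TLX+siCTL cells, and 3.98, 3.56 and 3.39 in CTL+siCTL cells. DUXAP9 had 3.87, 3.41 and 3.70 in TLX+siTLX cells, 3.50, 3.66 and 3.60 in TLX+siCTL cells, and 2.14, 2.20 and 2.37 in CTL+siCTL cells. IPO5P1, EMC3-AS1 and AL109918.1, the other 3, differed by 1.31, 1.40 and 1.08 between TLX+siCTL and CTL+siCTL. All 5 lay above the controls in every library with TLX. Of the 31-base words of DUXAP10 and DUXAP9 only 36.4% and 15.5% were their own, so reads may have been shared between these copies. The other genes with under 50% were the read-through gene JMJD7-PLA2G4B (38.7%) and CTAGE4 (0.039%), whose value therefore cannot be assigned to that gene alone. Of the 70 members matched, 38 had at least 95% of words of their own and 15 under 80%.

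For 6 members the symbol stands on more than 1 row. The second row of EPOP, at a mean of 0.72 log2 CPM, differed by 0.72 for TLX+siCTL minus CTL+siCTL and by -0.19 with the siRNA. The second row of CTAGE4, near the lowest value with a mean of -5.12, differed by 0 and by 0.63. Neither second row meets the rule. IFI27 differed by 1.30 and 1.38 on its 2 rows. The 8 rows of TAP2, a transporter of peptides for MHC class I, ranged from 0.15 to 1.75, and its row in the primary annotation differed by 0.99 for TLX+siCTL minus CTL+siCTL and by 0.38 with the siRNA, which lies outside the rule. The row of DHRS11 in the primary annotation differed by 1.53 and by 0.37 with the siRNA, at a mean of -0.25 log2 CPM, and also lies outside the rule. The 7 rows of C2 ranged from 0.85 to 1.79. With the siRNA the chosen row of C2 changed by 0.23 and the other 6 by -1.02 to -0.10.

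The rule bounded the change with the siRNA, so nothing is read from the counts of it. The TLX+siTLX and TLX+siCTL libraries of 19 genes did not overlap, as for 59.0% of the 11886 genes. By limma 3 were called higher (CD59, DRAP1 and DDAH1, by 0.20 to 0.24) and 4 lower (G0S2, CORO2B, LSM5 and CASP2, with changes of -0.24, -0.22, -0.21 and -0.14), where 24.3% of the 11886 genes were called higher and 22.5% lower. The authors' deposited table gives a false discovery rate under 0.05 in this comparison for 6 of the 72, and for all 72 in each of the comparisons with control cells. The share over all genes is not given here for that table, so nothing is read from these counts either.

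The rule did not use the spread within groups. The median within-group SD of the 72 was 0.11 log2 units, beside 0.14 in the 192 genes that were higher again, 0.12 in the 59 that were lower with the siRNA and 0.09 over the 11886 genes. The median of the mean level over all libraries was 3.53 log2 CPM in the 72, 3.16 in the 192, 3.51 in the 59 and 5.08 in the 11886.

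The places of the members in the genome are given as a description. Of the 70 with a position, 8 were on chromosome 11 and 7 each on X, 7 and 6. Chromosomes X, 21, 7 and 6 were picked because genes outside the 72 had the highest median differences there between TLX+siCTL and CTL+siCTL. They held 21 of the 70 (30.0%), against 13.8% of 11656 placed genes. The share was 15.3% for genes that were higher again with the siRNA and 36.8% for those that were lower with it. The same comparison chose the members, so nothing is read from these shares. On these chromosomes the genes outside the 72 were also higher in TLX+siCTL cells than in CTL+siCTL cells, with medians of 0.33 on X, 0.28 on 21, 0.27 on 7 and 0.25 on 6, while the other chromosomes had medians between -0.27 (chromosome 12) and 0.09. In single libraries the X median was 0.30, 0.31 and 0.27 above the control mean in TLX+siTLX cells, 0.34, 0.34 and 0.36 in TLX+siCTL cells, and 0.01, 0.00 and -0.01 in CTL+siCTL cells. The shift was thus present with either siRNA, and the chromosome medians of the change with the siRNA lay between -0.09 and 0.04.

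**Figure D5:**
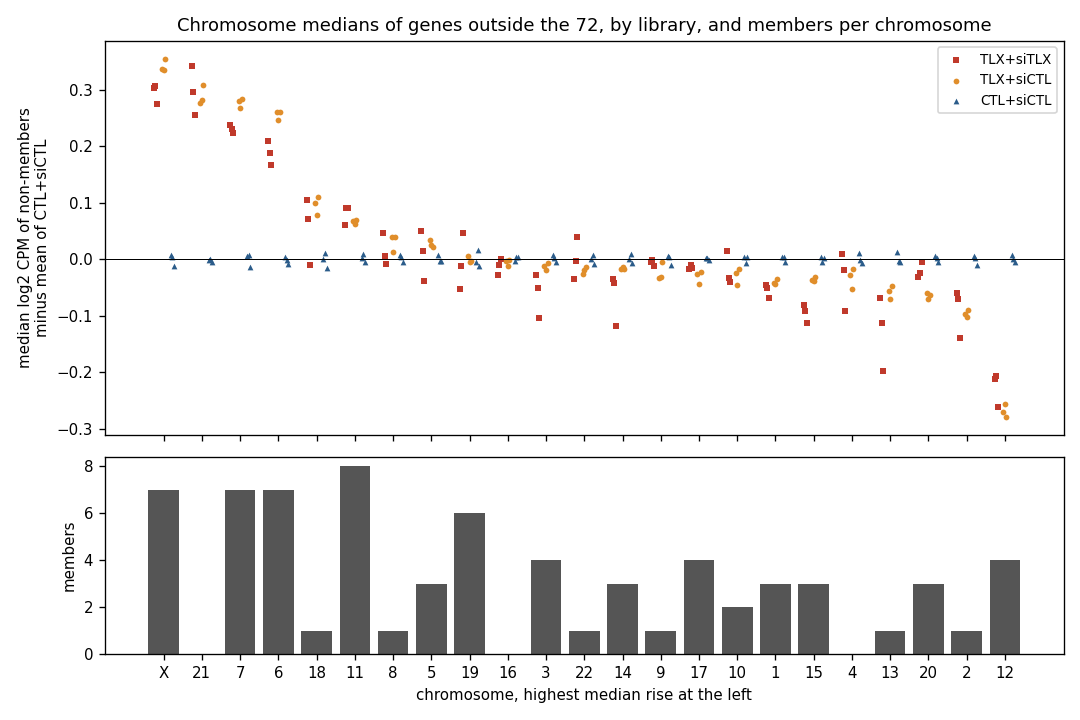
Top, median log2 CPM over the genes outside the 72 on each chromosome, minus their mean in CTL+siCTL, with a point per library (TLX+siTLX, TLX+siCTL and CTL+siCTL from left to right). Bottom, number of the 72 genes per chromosome; X, 21, 7 and 6 stand highest in all 6 libraries with TLX, chromosome 12 lowest, and they hold 7, 0, 7, 7 and 4 members.

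The members on X, 21, 7 and 6 had the smaller differences, with a median of 1.15 and a highest value of 1.49, beside a median of 1.31 elsewhere. Subtracting the chromosome median left 20 of the 70 members under a difference of 1. Around single members the neighbouring genes varied. Of 61 members with at least 5 other measured genes within 1 Mb, 41 had a neighbour median above 0. These medians ranged from -0.63 to 0.67, with none at 1 or more. Such medians were not computed around genes outside the members, so nothing is read from the 41. DKC1, on X, had 32 such neighbours with a median of 0.44, and 31 of them were above 0. On X as a whole, 77.8% of the genes outside the members were above 0. PSG6 had 30 such neighbours, with a median of -0.07 and the highest, PSG3, at 2.21. The part of the chromosome medians in the members' differences was not tested.

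TLX is known to bind DNA at AAGTCA. RefSeq gave promoter windows of 300 bases for 52 of the 72 genes, and AAGTCA or its complement occurred in 3 of them (5.77%), beside 7.57% of 9357 measured genes, 6.12% of the genes that were higher again with the siRNA, 13.0% of those that were lower with it and 12.5% of all 27305 windows. The 3 stretches are shown with the match in capitals. That of GNG7, a G protein gamma subunit, lies at chr19:2702905-2702940 (minus strand), that of FHL1, a LIM-domain protein of muscle, at chrX:136146489-136146524 (plus strand), and that of ADAT2 at chr6:143450887-143450922 (minus strand), all GRCh38.p14, and the motif begins 231, 198 and 212 bases before the start.
GNG7: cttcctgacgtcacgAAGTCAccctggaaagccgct
FHL1: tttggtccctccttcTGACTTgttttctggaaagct
ADAT2: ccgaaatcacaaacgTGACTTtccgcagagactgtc

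With the siRNA these 3 genes changed by 0.20, -0.07 and -0.08. GNG7 had 3.25, 3.36 and 3.44 log2 CPM in TLX+siTLX cells, 3.22, 3.11 and 3.12 in TLX+siCTL cells, and 2.07, 2.00 and 1.70 in CTL+siCTL cells. FHL1 had 4.99, 4.70 and 4.99 in TLX+siTLX cells, 5.09, 4.67 and 5.13 in TLX+siCTL cells, and 3.72, 3.86 and 3.84 in CTL+siCTL cells. ADAT2 had 2.85, 2.70 and 2.53 in TLX+siTLX cells, 2.76, 2.81 and 2.78 in TLX+siCTL cells, and 1.85, 1.45 and 1.64 in CTL+siCTL cells.

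Cell cycle motifs were close to the background share in the 72. TTTGAA, the cell cycle genes homology region, was in 9.62% of their windows, beside 9.36% of the measured genes and 26.5% of the genes that were higher again with the siRNA. CCAAT was in 34.6%, beside 37.0% and 47.6%. The E2F spelling TTTGGCGC was in 1.92% of the windows, that of GINS1, beside 1.15% and 6.80%. TTTCCCGC was in 3.85%, those of DRAP1 and EMC3-AS1, beside 2.73% and 9.52%. The genes that were lower with the siRNA also lay near the background, so this is not particular to the 72. Of their 46 windows, 10.9% held TTTGAA, 37.0% CCAAT, 0% TTTGGCGC and 2.17% TTTCCCGC. All motifs were searched on both strands, and a window may hold more than 1 of them. The windows of the 72 had a median GC content of 64.5%, beside 65.7% in the measured genes and 62.7% in the genes that were higher again.

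The edges of the rule were close to other genes. Just inside the minimum difference of 1 were C2 (1.003), SIRPA (1.003) and CD59 (1.02), and just outside CHST7 (0.998), SLC1A4 (0.997) and SYNJ2 (0.992). At the bound on the siRNA change the last genes inside were DDAH1 (0.243), DUXAP10 (-0.241) and CD59 (0.239), and the nearest outside GPER1 (0.252), CXADR (-0.253) and GSPT2 (-0.258). At the minimum mean the last inside were PTPN6, ARHGEF25 and SIRPA (1.02, 1.08 and 1.12 log2 CPM), and the nearest outside MAGEH1, ZNF334 and NOTCH2NLR (0.86, 0.85 and 0.67). With each library left out in turn, 48 of the 72 stayed inside the rule every time, GINS1 and DRAP1 among them, while PSG6, G0S2, CD59 and COL8A1 did not.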

How the data were processed

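Stranded mRNA libraries of 9 samples in 3 groups of 3 were analysed. The authors deposited log2 CPM values for 27548 rows, each an Ensembl gene, and a table of their own comparisons with signed fold values, p-values and false discovery rates. The submitters' processing notes name kallisto (0.44.0), limma, edgeR and GRCh38 without saying which step each served. The lowest log2 value in the deposited table, -5.33, is what 0 reads give when 2 are added as a prior. It was the same in all 9 libraries, so it does not by itself give the size of each. The effective library sizes are therefore estimates. Column names give the group and a running number found in no label, and 0 columns were left unmapped.

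Members were found by the rule stated at the start of the report, whose members and gene lists were chosen with earlier results of these data known. limma 3.58.1 (R 4.3.3), with an intensity trend, was fitted to the deposited log2 values of all 9 libraries, two-sided, with Benjamini-Hochberg adjustment over 27548 rows and a threshold of 0.05. It serves as the background and as the test of genes outside the members. On simulated data with 200 changed rows it recovered 194 and called 10 unchanged ones. Positions and transcripts came from GENCODE 29, which held 24790 of the rows, and promoter windows from RefSeq. Shared sequence was measured as 31-base words found in 1 gene only. Neighbours were genes above the same minimum mean of 1 that lay within 1 Mb. The values were already on a log scale, so no count model was used.

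Genes named with their values were PSG6, the 15 members with the largest difference, the 8 with the highest mean, members of the lists, those nearest each threshold, the 5 with the smallest siRNA change, members within 200 kb of each other, and NR2E1 with up to 3 called genes outside the members from each list that held one. Others were added after their values were seen, and 1 member is not reported here. Alternatives were other scalings, filters, log scales, fits and libraries left out.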

Additional observations from a re-analysis of the deposited data

How the results depend on the processing

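The rule found 72 genes as applied, 75 after centring library medians, 83 after quantile normalization, 57 on log2(CPM + 1), 76 with every row kept, 83 with a minimum mean of 0, and 59 and 85 with bounds of 0.2 and 0.3. With a library left out it found 72 to 83, sharing 63 to 70 with the 72. Of 2 alternatives chosen after seeing the data, subtracting chromosome medians found 60, 50 of them among the 72, and keeping symbols on 1 annotated row found 66. Of 1728 recomputed differences of members, 51 moved by the within-group SD or more. The sign changed in 73, all of them changes with the siRNA and none of them a rise in the TLX line. The matrix metalloproteinase gene MMP16, outside the members, differed by 0.15 with the siRNA, and by -0.013 after quantile normalization, with values between -0.23 and 0.46 over the fits that left out a library each. The cause was not tested. No paired analysis was possible because the table's columns do not carry the replicate numbers of the labels. Counting intervals are not given because whole counts were not used here, and genes near the minimum mean are the least certain.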
